A study of Homo sapiens with 12 samples.

Results

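Kinesin genes were followed in RNA-seq counts of PC9 and H1650, established lines of non-small cell lung cancer, before and after inhibition of the epidermal growth factor receptor (EGFR). Members were the rows of the deposited gene table whose symbol is KIF followed by a number and an optional letter A to C, or KIFC1, KIFC2 or KIFC3, which gave 42 of 60591 genes. An expression filter by group kept 36 of the 42 and 19108 genes in all. The labels give the genotype of both lines as wild-type, and the study describes both as carrying the same activating deletion in EGFR. T0 libraries came from cells in 0.1% DMSO at 0 h, erlotinib libraries from cells with 10 µM erlotinib for 36 h, and osimertinib libraries from cells with 0.1 µM osimertinib for 36 h. All cells were seeded in wells and left to adhere overnight before drugging. There were 2 replicates in each of 6 groups, and so 12 libraries of polyadenylated RNA.

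Library totals lay between 17961765 and 26346187 reads on genes. Values are normalized CPM, the read count scaled to a common library size by TMM, and at this depth 3 reads, the limit that a count of 0 allows, are worth 0.116 to 0.168 normalized CPM depending on the library. Counting intervals and limits reflect counting alone, because PCR copies of 1 molecule cannot be recognized here. Intervals of log2 fold changes come from the edgeR fit and also take in the spread between libraries. Changes are log2 fold changes of edgeR's quasi-likelihood test, and a gene was called when its Benjamini-Hochberg adjusted p over the 19108 genes was under 0.05. The labels do not say whether replicates were separate cultures, so p-values measure the spread between these libraries. Since T0 was the sole vehicle condition used here, drug and hours in culture cannot be told apart. In RNA from whole cultures, fewer dividing cells and less RNA per cell cannot be told apart either. Epithelial markers were abundant in every library (EPCAM at 199 to 541 and KRT8 at 2067 to 4280 normalized CPM), while PTPRC, CD3E and COL1A2 had at most 5 reads in any library and COL1A1 had 214 to 968. PECAM1, VWF, PDGFRB and CD68 had at most 32, 48, 22 and 11 reads. Of the 8 markers of other cell types, COL1A1 was at 9.96 to 44.8 normalized CPM and no other passed 2.22. Their summed level, which is thus mostly COL1A1, was 20.9 to 23.2 normalized CPM in PC9 at T0. It was 21.9 to 25.9 after erlotinib and 39.4 to 48.97 after osimertinib. In H1650 the summed level was 12.4 to 12.6, 11.3 to 12.2 and 14.3 to 15.7. Its part in the kinesin results was not tested.

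Kinesins are motor proteins that use ATP to walk along microtubules or to take them apart. One set builds and remodels the mitotic spindle, moves chromosomes and completes cytokinesis, and its genes are mostly transcribed as cells approach division. Another set carries vesicles, mitochondria, endosomes and ciliary cargo and is used by resting and dividing cells alike. From general knowledge, and with earlier results of these data known, the 42 members were sorted into 13 mitotic kinesins, 17 transport kinesins and 12 others. The others include ciliary regulators, microtubule depolymerases and members of little-known role. Of these classes, 12, 17 and 7 members passed the expression filter. KIF4B, KIF2B, KIF6, KIF19, KIF25 and KIF26B did not, with at most 8 reads in any library, and KIF2B had 0 reads in all 12 libraries. KIF4B is a near-identical copy of KIF4A, so reads of the pair are uncertain.

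The mitotic kinesins fell together, and far more in PC9 than in H1650. All 12 that were tested were called lower than at T0 with either drug in either line, where 29.1% of all genes tested were called lower after erlotinib in PC9, 28.7% after osimertinib in PC9, 18.5% after erlotinib in H1650 and 17.9% after osimertinib in H1650. In each comparison the treated libraries of all 12 lay below both T0 libraries. The share of all genes tested with such a separation was not counted. In PC9 the log2 fold changes after erlotinib ran from -3.46 for KIF18B to -2.01 for KIF22, with a median of -2.97, which is a fall of 4.03-fold to 11.02-fold. After osimertinib they ran from -3.41 to -1.89, with a median of -2.996. In H1650 the same genes fell by 1.33-fold to 1.89-fold after erlotinib, a median of -0.73, and by 1.38-fold to 1.95-fold after osimertinib, a median of -0.75. The median over all genes tested was 0.074, 0.064, 0.0051 and 0 in the same 4 comparisons.

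For the 12 mitotic kinesins, SEs of the log2 fold changes were 0.0743 to 0.136 over the 4 comparisons. The highest adjusted p was 1.13e-17 in PC9 and 0.00166 in H1650. Within a line, erlotinib and osimertinib shared their T0 libraries, so their values are given side by side and are not separate evidence.

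**Figure D1:**
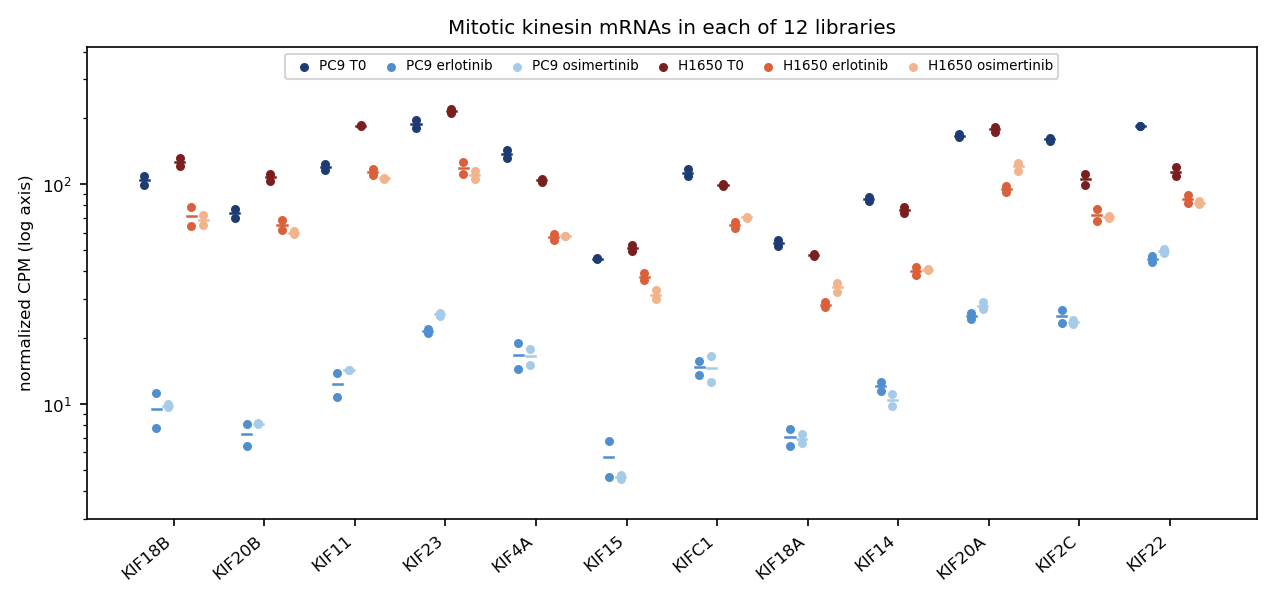
Normalized CPM (log axis) of the 12 mitotic kinesins over the expression filter, with 1 point per library and a bar at the mean of 2. In PC9 the treated libraries lie between 4.54 and 50.5, all below the T0 libraries of the same gene, and in H1650 the fall is smaller.

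Among the motors that assemble the spindle, KIF11 (chr10:92593286-92655395; positions are those of GENCODE 29 on GRCh38) is the plus-end motor that pushes spindle poles apart. It stood at 116 and 123 normalized CPM in the PC9 libraries at T0, 10.7 and 13.8 after erlotinib and 14.2 and 14.2 after osimertinib. H1650 held 185 and 184 normalized CPM of KIF11 at T0, 110.0 and 117 after erlotinib and 106 and 106 after osimertinib. The treated H1650 libraries thus remained near the T0 level of PC9, while those of PC9 did not overlap any other group. For erlotinib and osimertinib the log2 fold changes in PC9 were -3.27 and -3.07, and those in H1650 -0.70 and -0.80.

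KIF15 (chr3:44761717-44873376), which can also hold the spindle bipolar, fell by a similar factor. Its PC9 libraries were at 45.4 and 45.9 normalized CPM at T0, 4.66 and 6.79 with erlotinib and 4.72 and 4.54 with osimertinib. The H1650 libraries had 52.8 and 49.3 at T0, 36.5 and 39.2 with erlotinib and 29.8 and 32.8 with osimertinib. In H1650 its fall after erlotinib, -0.43 (SE 0.104, adjusted p = 0.00166), was near the smallest of the class, and in PC9 its fall after osimertinib was -3.30. KIFC1 (chr6:33391536-33409924) is the minus-end motor that focuses spindle poles. It was at 117 and 108 normalized CPM in PC9 at T0, at 15.7 and 13.5 with erlotinib and at 12.6 and 16.5 with osimertinib. Neither treated group overlapped T0. In H1650 it went from 99.9 and 98.2 to 67.4 and 62.8 with erlotinib and 70.98 and 70.2 with osimertinib. Every treated H1650 library held more KIFC1 than every treated PC9 library. Exons of KIFC1 overlap a ribosomal protein pseudogene on the opposite strand, and strandedness is not given in the sources used here.

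Motors that act on chromosomes and microtubule ends moved in the same way. KIF4A (chrX:70290090-70420832), a chromokinesin that also shortens the central spindle, was at 131 and 143 normalized CPM in PC9 at T0, at 14.3 and 18.9 with erlotinib and at 15.1 and 17.8 with osimertinib. Its H1650 libraries were at 103 and 106 at T0, 55.7 and 59.1 with erlotinib and 58.1 and 57.8 with osimertinib. KIF4A started lower in H1650 and ended higher. Exons of KIF4A overlap PDZD11 on the opposite strand. KIF18A (chr11:28020620-28108308), which damps chromosome movements, had 51.98 and 55.4 normalized CPM in PC9 at T0, 7.66 and 6.40 with erlotinib and 7.26 and 6.62 with osimertinib. The H1650 groups had 47.1 and 47.96 at T0, 28.998 and 27.4 with erlotinib and 32.3 and 35.4 with osimertinib. Its exons overlap METTL15 on the opposite strand. KIF18B (chr17:44924709-44947711), which acts on astral microtubules, fell most in PC9, from 108 and 99.2 to 11.2 and 7.73 with erlotinib and 9.62 and 9.92 with osimertinib. In H1650 it went from 121 and 131 to 78.4 and 64.5 with erlotinib and 65.3 and 72.3 with osimertinib.

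KIF2C (chr1:44739818-44767767) is a depolymerase that corrects faulty chromosome attachments. PC9 had 157 and 163 normalized CPM at T0, 26.7 and 23.2 with erlotinib and 24.05 and 23.1 with osimertinib, and H1650 had 99.4 and 111 at T0, 68.2 and 76.9 with erlotinib and 69.9 and 71.2 with osimertinib. KIF22 (chr16:29790719-29805385), a chromokinesin that pushes chromosome arms away from the poles, fell least of the 12 in each of the 4 comparisons. It was at 184 and 183 normalized CPM in PC9 at T0, 47.2 and 43.998 with erlotinib and 48.6 and 50.5 with osimertinib. H1650 had 119 and 108 at T0, 88.95 and 82.3 with erlotinib and 83.3 and 81.02 with osimertinib. Even so, the treated groups did not overlap T0 of the same line. The log2 fold changes in PC9 were -2.01 (SE 0.0794, adjusted p = 2.08e-18) and -1.89 (SE 0.0796, adjusted p = 7.95e-18), and those in H1650 -0.41 (SE 0.0765, adjusted p = 0.000105) and -0.47 (SE 0.0765, adjusted p = 1.86e-05). Exons of KIF2C and KIF22 each overlap a transcript on the opposite strand.

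The motors of cytokinesis fell in the same way. KIF23 (chr15:69414246-69448427), a subunit of centralspindlin, was at 180.4 and 195 normalized CPM in PC9 at T0, 21.9 and 20.9 with erlotinib and 24.97 and 25.96 with osimertinib. In H1650, KIF23 was at 209.5 and 219.6 at T0, 111 and 126 with erlotinib and 105 and 115 with osimertinib, and its fall after osimertinib (-0.96) was the largest of the class there. KIF20A (chr5:138178719-138187715), which brings the chromosomal passenger complex to the central spindle, had 163 and 168 normalized CPM in PC9 at T0, 24.4 and 25.9 with erlotinib and 26.96 and 28.9 with osimertinib. In H1650, KIF20A had 173 and 181 at T0, 92.2 and 98.1 with erlotinib and 115 and 125 with osimertinib, so that both osimertinib libraries lay above both erlotinib libraries. Its exons overlap BRD8 and CDC23 on the opposite strand, and those of KIF23 overlap a transcript on the opposite strand. KIF20B (chr10:89701610-89774939), a related motor of late cytokinesis, was at 70.1 and 76.9 in PC9 at T0, at 6.45 and 8.12 with erlotinib and at 8.14 and 8.07 with osimertinib. In H1650, KIF20B was at 103 and 111 at T0, 61.97 and 68.7 with erlotinib and 59.1 and 61.1 with osimertinib. KIF14 (chr1:200551497-200620734), which works with citron kinase at the midbody, had 84.04 and 87.2 at T0, 12.6 and 11.4 with erlotinib and 11.1 and 9.75 with osimertinib, in normalized CPM, in the PC9 groups. The 2 H1650 libraries at T0 had 73.6 and 78.4, those with erlotinib 38.3 and 41.9 and those with osimertinib 40.8 and 40.4. KIF14 had the largest fall of the class in H1650 after erlotinib, -0.92 (SE 0.0868, adjusted p = 2.06e-09).

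Since these genes moved together, their promoter windows were read from RefSeq (GRCh38.p14). A window spans 250 bases before to 50 bases after the annotated start, and 34 of the 42 members, including the 12 tested mitotic kinesins, have one. Windows were searched on both strands for forms of the cell cycle homology region (CHR), TTTGAA and TTTAAA, for CCAAT, and for the E2F-like TTCCCGC and TTGGCGC. In cycling cells the CHR is known to be bound by complexes that keep mitotic genes low outside late cell cycle phases, and CCAAT by the factor NF-Y. The first 6 sequences below are mitotic kinesins of each role, with KIF22 as the member that fell least, and the last 2 are transport kinesins for contrast. Each runs 5′ to 3′ on the gene's strand from 120 bases before to 30 bases after the start, with CHR and CCAAT matches on either strand in capitals (ATTGG is CCAAT and TTCAAA is TTTGAA on the other strand).
KIF11, chr10:92593010-92593159, plus strand: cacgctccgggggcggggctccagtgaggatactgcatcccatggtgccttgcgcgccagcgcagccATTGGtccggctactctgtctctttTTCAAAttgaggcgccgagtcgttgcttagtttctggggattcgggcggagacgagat
KIFC1, chr6:33391703-33391852, plus strand: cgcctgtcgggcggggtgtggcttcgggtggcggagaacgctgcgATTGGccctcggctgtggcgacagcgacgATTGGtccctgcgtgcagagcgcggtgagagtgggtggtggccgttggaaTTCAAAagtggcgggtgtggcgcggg
KIF4A, chrX:70289984-70290133, plus strand: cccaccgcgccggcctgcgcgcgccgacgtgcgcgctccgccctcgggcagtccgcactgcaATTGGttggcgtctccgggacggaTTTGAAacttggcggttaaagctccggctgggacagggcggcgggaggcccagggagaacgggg
KIF23, chr15:69414229-69414378, plus strand: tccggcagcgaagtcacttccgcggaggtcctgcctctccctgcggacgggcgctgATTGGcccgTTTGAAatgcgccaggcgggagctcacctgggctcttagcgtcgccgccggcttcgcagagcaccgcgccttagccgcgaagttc
KIF20A, chr5:138178992-138179141, plus strand: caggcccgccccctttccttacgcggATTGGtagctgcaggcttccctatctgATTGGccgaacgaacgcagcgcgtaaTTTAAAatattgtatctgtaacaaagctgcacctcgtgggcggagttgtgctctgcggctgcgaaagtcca
KIF22, chr16:29790631-29790780, plus strand: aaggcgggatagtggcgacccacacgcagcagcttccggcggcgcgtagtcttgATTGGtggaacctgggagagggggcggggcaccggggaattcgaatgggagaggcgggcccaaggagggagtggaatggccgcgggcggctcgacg
KIF5B, chr10:32056396-32056545, minus strand: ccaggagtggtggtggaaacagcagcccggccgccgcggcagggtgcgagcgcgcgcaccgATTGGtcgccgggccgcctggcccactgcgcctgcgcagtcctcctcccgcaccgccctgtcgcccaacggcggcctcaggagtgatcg
KIF3B, chr20:32277531-32277680, plus strand: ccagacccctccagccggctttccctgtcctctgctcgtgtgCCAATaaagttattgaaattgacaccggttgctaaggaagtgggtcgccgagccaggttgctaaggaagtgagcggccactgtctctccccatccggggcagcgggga

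A form of the CHR was found in the 300-base windows of 11 of the 12 mitotic kinesins tested, of 2 of 12 transport kinesins with a window and of 0 of 6 others tested, against 24.3% of the first-listed windows of 27305 genes. CCAAT was in 10 of 12, 3 of 12 and 2 of 6 windows (35.7% of all), and both together in 9 of 12, 1 of 12 and 0 of 6 (9.49% of all). The E2F-like letters were in 3 of 12 mitotic and 3 of 12 transport windows (9.33% of all). TTTAAA reads the same on both strands, and TTGGCGC can overlap ATTGG. When only the 250 bases before the start were read, the CHR count was 7 of 12 mitotic, 2 of 12 transport and 22.1% of all windows, because several matches lie just after the start, as the one at 5 to 10 bases past it in KIFC1. KIF11 has TTTGAA at 28 to 23 bases before the start and CCAAT at 53 to 49, both on the minus strand. KIF22 had CCAAT but no form of the CHR in either of its 2 listed windows, and KIF5B had TTTGAA only at 140 to 135 bases before the start, outside the stretch printed. A match is a description of letters and not a bound site.

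The summed level of the class shows the same shift. Per kilobase of the length given with the counts, the tested and untested mitotic kinesins together summed to 311 and 317 normalized CPM per kb in PC9 at T0, 46.0 and 44.9 after erlotinib, and 46.2 and 48.6 after osimertinib. In H1650 the sums were 295 and 303, then 181 and 185, and 183 and 189. At T0 the lines were thus close, and they were far apart once treated. The transport kinesins moved much less, from 175 and 181 in PC9 to 162 and 162 with erlotinib and 152 and 150 with osimertinib, and from 262 and 252 in H1650 to 230.2 and 230.3 and to 216 and 206. As a share of all kinesin mRNA per kb, mitotic kinesins went from 61.7% and 61.2% in PC9 to 20.9% and 20.5% with erlotinib and 22.2% and 23.2% with osimertinib. In H1650 the share went from 51.1% and 52.6% to 41.7% and 42.2% and to 43.7% and 45.6%.

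**Figure D2:**
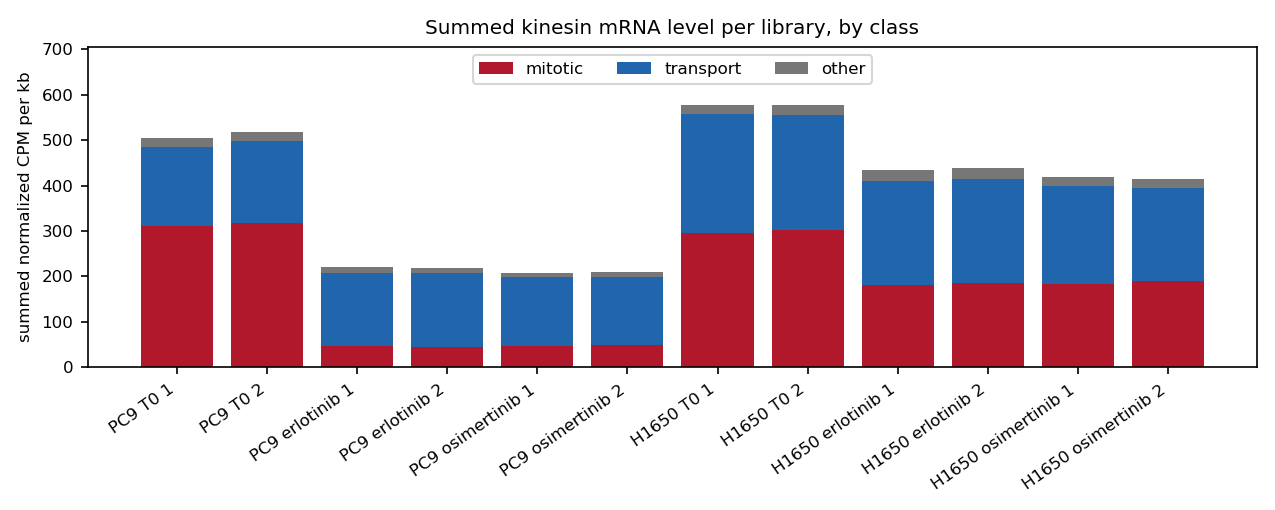
Stacked bars of the summed normalized CPM per kb of mitotic, transport and other kinesins in each of 12 libraries. The mitotic part of the bar shrinks from over 300 to under 50 in PC9 and to between 181 and 189 in H1650, while the transport part goes from 175 and 181 to between 150.2 and 162 in PC9 and from 252 and 262 to between 206 and 230.3 in H1650.

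Genes that work with mitotic kinesins moved in the same direction. They were listed from general knowledge with earlier results of these data known, and so are not separate support for the fall of the class. Of 16 such genes, 16 were called lower in PC9 after erlotinib and 15 after osimertinib (medians -3.12 and -3.04), and 14 and 15 in H1650 (medians -0.66 and -0.76), where 29.1%, 28.7%, 18.5% and 17.9% of all genes were called lower. PRC1, the microtubule bundler to which KIF4A binds, had log2 fold changes of -3.46 and -3.20 in PC9. RACGAP1, the partner of KIF23 in centralspindlin, had -2.88 and -2.83, and TPX2, which targets KIF11 to the spindle, -3.12 and -3.16. NUSAP1 was the member that missed the test with osimertinib in PC9 (adjusted p = 0.173) and with both drugs in H1650, and PRC1 missed it with erlotinib in H1650 (adjusted p = 0.410).

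The transport kinesins moved in both directions, with more called lower than higher in H1650. In PC9, 6 of 17 were called higher and 5 lower after erlotinib, and 4 higher and 7 lower after osimertinib, with median log2 fold changes of 0.12 and 0.056. In H1650, 4 were higher and 8 lower after erlotinib and 2 higher and 7 lower after osimertinib, with medians of -0.18 and -0.28. Among all genes tested, 32.7% were called higher with each drug in PC9 and 29.1% and 28.7% lower, and in H1650 18.0% and 17.8% were called higher and 18.5% and 17.9% lower. The median of PC9 after osimertinib was -0.029 without the expression filter, -0.059 with one fit per line and -0.00099 without PC9 T0 replicate 2, so its sign is not settled. Without H1650 erlotinib replicate 1, 5 transport kinesins in place of 8 were lower in H1650 after erlotinib. Without H1650 osimertinib replicate 1 or H1650 T0 replicate 2, 1 in place of 2 was higher after osimertinib.

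**Figure D3:**
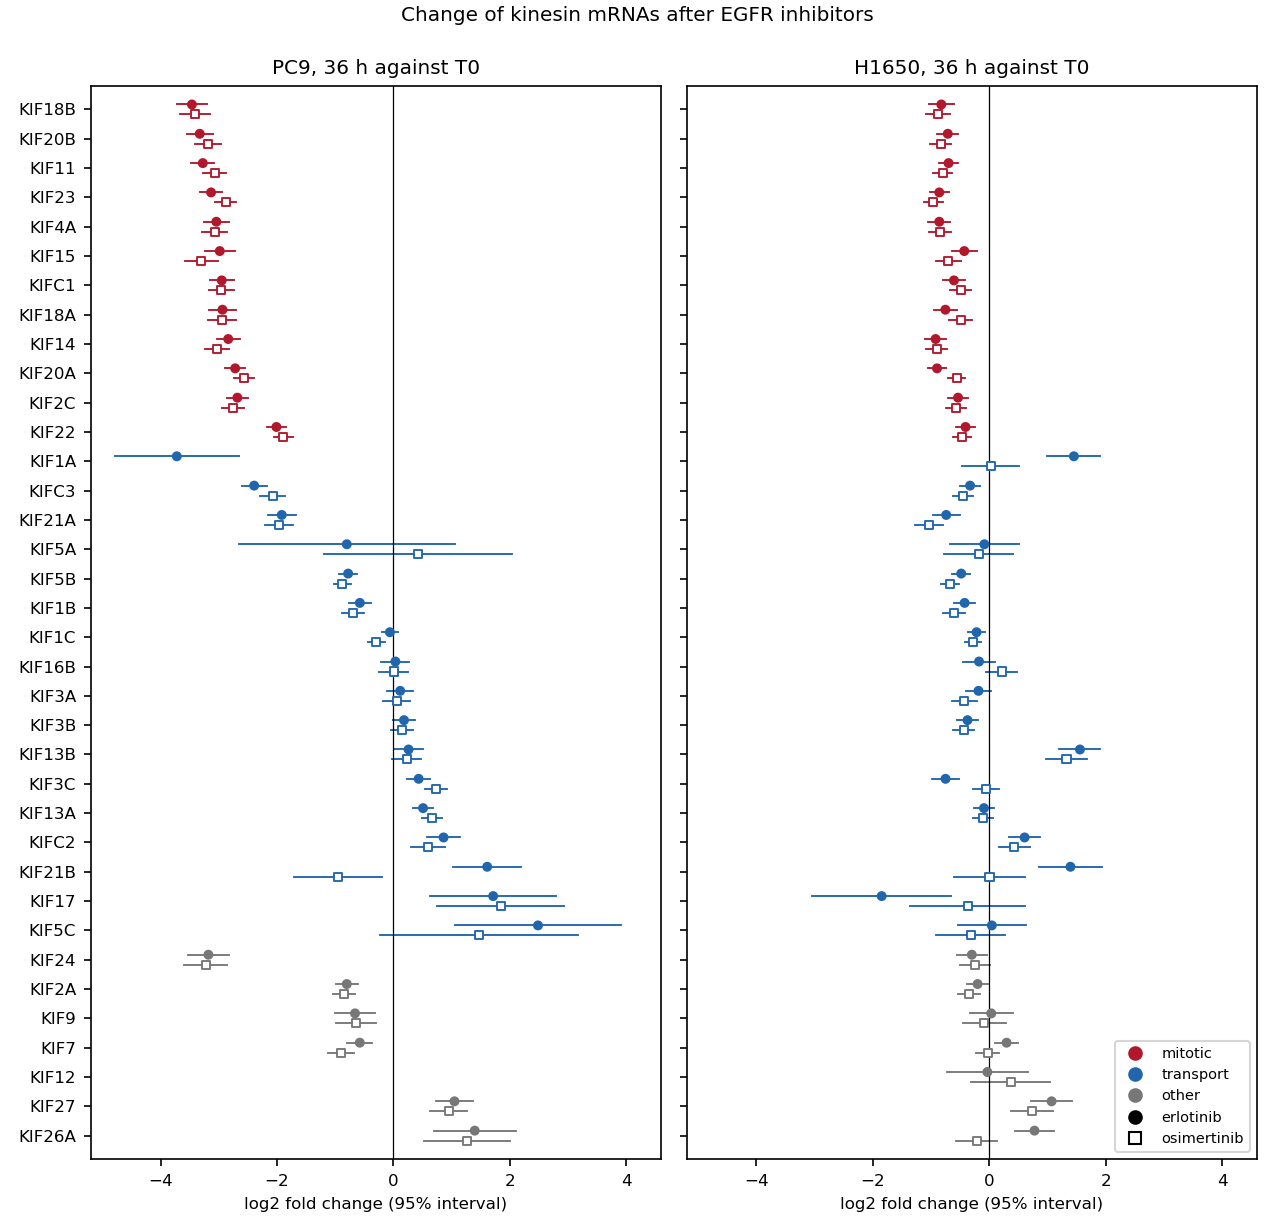
Log2 fold changes at 36 h against T0 with 95% intervals, by class, for the 36 tested kinesins in PC9 and H1650 (filled circles, erlotinib; open squares, osimertinib). The mitotic kinesins form a block at -3.46 to -1.89 in PC9 and -0.96 to -0.41 in H1650, and the transport kinesins spread on both sides of 0; KIF12 in PC9 and KIF1A in PC9 after osimertinib are not drawn because a group had 0 reads.

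Kinesin-1 motors carry vesicles and mitochondria on a pair of heavy chains, KIF5A, KIF5B or KIF5C, with light chains. KIF5B (chr10:32009010-32056431), the heavy chain found in most cells, was lower with both drugs in both lines. PC9 had 307 and 324 normalized CPM at T0, 174 and 194 with erlotinib and 174 and 170.5 with osimertinib, and H1650 had 471 and 459 at T0, 313 and 354 with erlotinib and 295 and 288 with osimertinib. The treated libraries did not overlap T0 in either line, with log2 fold changes of -0.78 (SE 0.0741), -0.88 (SE 0.0745), -0.48 (SE 0.0730) and -0.67 (SE 0.0732), and adjusted p at most 5.99e-06. KIF5C (chr2:148875250-149026759), known from neurons, was near the detection limit in PC9 with 2 and 3 reads at T0, 8 and 27 with erlotinib and 6 and 8 with osimertinib. The ratio to T0 was 5.85 with erlotinib (95% counting interval 2.28 to 19.1) and 2.84 with osimertinib (0.968 to 10.1). The erlotinib call was lost without PC9 erlotinib replicate 2 (adjusted p = 0.154). In H1650, KIF5C had 4.52 and 5.29 normalized CPM at T0, 4.49 and 5.63 with erlotinib and 5.01 and 2.90 with osimertinib, and each treated group overlapped T0. KIF5A (chr12:57549998-57586632), also known from neurons, had 4 and 2 reads in PC9 at T0, 2 and 2 with erlotinib and 6 and 2 with osimertinib, and 2.94 and 4.01 normalized CPM in H1650 at T0, 3.04 and 3.54 with erlotinib and 3.01 and 3.16 with osimertinib, and passed the test in none of the 4 drug comparisons.

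Kinesin-2 motors serve cilia and endosomes. KIF3A and KIF3B form a heterodimer. KIF3B was called lower in H1650 with both drugs and KIF3A with osimertinib, and neither was called in PC9. KIF3B (chr20:32277664-32335011) had 121 and 129 normalized CPM in PC9 at T0, 129.8 and 154 with erlotinib and 137 and 139 with osimertinib, and 203 and 214 in H1650 at T0, 143 and 178 with erlotinib and 149 and 158 with osimertinib. Its H1650 groups did not overlap T0, with log2 fold changes of -0.37 (SE 0.0887, adjusted p = 0.00135) and -0.44 (SE 0.0888, adjusted p = 0.000250), and the erlotinib call was lost without H1650 erlotinib replicate 1 (adjusted p = 0.0973). KIF3A was at 20.4 to 23.7 normalized CPM over the PC9 libraries, and in H1650 at 34.2 and 33.3 at T0, 27.2 and 32.1 with erlotinib and 23.8 and 26.4 with osimertinib. It had a log2 fold change of -0.43 (SE 0.104, adjusted p = 0.00182) in H1650 after osimertinib, and its exons overlap a transcript on the opposite strand. KIF3C (chr2:25926596-25982749), another partner of KIF3A, went the opposite way in the 2 lines with erlotinib. It was at 40.7 and 44.7 in PC9 at T0, 58.7 and 56.6 with erlotinib and 67.4 and 74.8 with osimertinib, so all treated libraries were above T0. H1650 had 18.9 and 17.5 at T0, 11.9 and 9.82 with erlotinib and 17.99 and 17.1 with osimertinib, so that erlotinib libraries were lower and osimertinib libraries overlapped T0. The log2 fold changes after erlotinib were 0.43 (SE 0.0938, adjusted p = 0.000226) in PC9 and -0.75 (SE 0.115, adjusted p = 6.79e-06) in H1650, and 0.74 (SE 0.0939, adjusted p = 9.61e-08) in PC9 after osimertinib.

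KIF17 (chr1:20664014-20718017), a homodimeric kinesin-2, was low in every library. It had 14 and 3 reads in PC9 at T0, 36 and 31 with erlotinib and 37 and 24 with osimertinib. In normalized CPM these were 0.706 and 0.148, 1.61 and 1.21, and 1.71 and 1.35. H1650 had 20 and 31 reads at T0, 5 and 7 with erlotinib and 12 and 24 with osimertinib. It was called higher in PC9 (1.71 and 1.84) and lower in H1650 after erlotinib (-1.85). The PC9 values rest on the T0 libraries: without PC9 T0 replicate 2 they were 0.98 and 1.11 and the calls were lost (adjusted p = 0.152 and 0.105), and without PC9 T0 replicate 1 they were 3.19 and 3.32. The H1650 call was lost without H1650 T0 replicate 2 (adjusted p = 0.0778) or without H1650 erlotinib replicate 1 (adjusted p = 0.0849).

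Kinesin-3 motors carry vesicle precursors and endosomes. KIF1C (chr17:4997948-5028401), which carries secretory and integrin vesicles, was abundant in both lines. PC9 had 444 and 465 normalized CPM at T0, 437 and 434 with erlotinib and 364 and 377 with osimertinib, and H1650 had 440.1 and 413 at T0, 353 and 381 with erlotinib and 363 and 341 with osimertinib. Its changes were small: -0.30 (SE 0.0691, adjusted p = 0.000528) in PC9 after osimertinib, and -0.22 and -0.28 in H1650, where the calls were lost without H1650 T0 replicate 1 (adjusted p = 0.150) or without H1650 erlotinib replicate 1 (adjusted p = 0.183) for erlotinib and without H1650 osimertinib replicate 2 (adjusted p = 0.0515) for osimertinib. KIF1B (chr1:10210805-10381603), a motor of mitochondria and vesicles, was called lower in each of the 4 drug comparisons. It was at 59.99 and 65.4 normalized CPM in PC9 at T0, 39.997 and 43.998 with erlotinib and 38.2 and 39.1 with osimertinib, and 73.6 and 75.7 in H1650 at T0, 49.9 and 61.4 with erlotinib and 48.5 and 49.9 with osimertinib, without overlap with T0. The log2 fold changes were -0.58, -0.70, -0.42 and -0.60, with adjusted p at most 0.000451. Exons of KIF1C overlap a transcript on the opposite strand, and those of KIF1B overlap one on the same strand.

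KIF1A (chr2:240713761-240821036), the carrier of synaptic vesicle precursors, fell in PC9 and rose in H1650 with erlotinib. PC9 had 30 and 28 reads at T0, 3 and 2 with erlotinib and 0 and 0 with osimertinib. The ratio of T0 to erlotinib was 13.9 (95% counting interval 5.61 to 44.3), and against the limit of 3 reads per library the level with osimertinib was at least 9.43-fold lower. H1650 had 4.85 and 3.28 normalized CPM at T0, 10.7 and 11.5 with erlotinib and 4.39 and 3.83 with osimertinib. There erlotinib libraries were the highest of the 12, with a log2 fold change of 1.45 (SE 0.221, adjusted p = 7.11e-06), while osimertinib libraries fell within the T0 range (adjusted p = 0.966).

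KIF13A and KIF13B, related motors of endosomal cargo, rose in different lines. KIF13A (chr6:17759183-17987623) had 72.5 and 85.9 normalized CPM in PC9 at T0, 108 and 117 with erlotinib and 123 and 128 with osimertinib, so all treated libraries were above T0 (0.51 (SE 0.0861, adjusted p = 9.08e-06) and 0.66 (SE 0.0864, adjusted p = 1.38e-07)). In H1650, KIF13A had 159 and 158 at T0, 137 and 161 with erlotinib and 151 and 144 with osimertinib, and neither drug passed the test (adjusted p = 0.432 and 0.362). KIF13B (chr8:29067279-29263124) had 26.2 and 25.4 at T0, 29.5 and 32.2 with erlotinib and 29.4 and 31.002 with osimertinib in PC9, where its log2 fold changes of 0.26 and 0.23 missed the threshold (adjusted p = 0.0605 and 0.107). That miss was close: a minimum of 10 counts per library and upper quartile normalization each called both changes higher. In H1650, KIF13B had 3.64 and 2.43 at T0, 8.51 and 9.12 with erlotinib and 8.26 and 6.81 with osimertinib, with changes of 1.56 (SE 0.172, adjusted p = 3.43e-08) and 1.33 (SE 0.174, adjusted p = 6.61e-07). Its treated H1650 libraries were still below every PC9 library. Exons of KIF13B overlap 2 transcripts on the opposite strand. KIF16B, the early endosome motor, passed the test in none of the 4 comparisons, with 24.7 to 29.01 normalized CPM in PC9 and 11.6 to 15.7 in H1650.

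KIF21A and KIF21B are relatives that also restrain microtubule growth. KIF21A (chr12:39293228-39443390) fell with both drugs in both lines: PC9 had 46.8 and 54.5 normalized CPM at T0, 12.5 and 14.2 with erlotinib and 12.7 and 13.2 with osimertinib, and H1650 had 33.1 and 34.2 at T0, 17.8 and 22.4 with erlotinib and 16.1 and 16.7 with osimertinib. With -1.92 and -1.97 in PC9 it lay next to KIF22, the mitotic kinesin that fell least there, and its -0.74 and -1.04 in H1650 lay within the mitotic range with erlotinib and below it with osimertinib. KIF21B (chr1:200969390-201023700) separated the drugs instead. In PC9 it had 1.66 and 1.48 normalized CPM at T0, 6.05 and 3.63 with erlotinib and 0.740 and 0.897 with osimertinib, and in H1650 2.01 and 2.12 at T0, 5.16 and 5.73 with erlotinib and 2.05 and 2.09 with osimertinib. In both lines the erlotinib libraries were the highest and did not overlap the others. Its log2 fold changes after erlotinib were 1.61 (SE 0.283, adjusted p = 1.6e-05) in PC9 and 1.40 (SE 0.266, adjusted p = 0.000125) in H1650. After osimertinib it was lower in PC9, with -0.95, a call that was lost without PC9 T0 replicate 1 (adjusted p = 0.105) or without PC9 osimertinib replicate 1 (adjusted p = 0.152), and also with DESeq2 (adjusted p = 0.0662). In H1650 KIF21B was not called after osimertinib (adjusted p = 1.00).

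Of the minus-end motors outside mitosis, KIFC3 and KIFC2 moved in opposite directions. KIFC3 (chr16:57758217-57863053), linked to adherens junctions and the Golgi, was lower in PC9 with 68.3 and 63.9 normalized CPM at T0, 12.3 and 12.8 with erlotinib and 16.9 and 14.4 with osimertinib. H1650 had 243 and 218 at T0, 202 and 166 with erlotinib and 172 and 165 with osimertinib, a small fall from a high level. The log2 fold changes were -2.39 (SE 0.105) and -2.07 (SE 0.105) in PC9, and -0.33 (SE 0.0857, adjusted p = 0.00314) and -0.45 (SE 0.0858, adjusted p = 0.000126) in H1650, and the H1650 erlotinib call was lost without H1650 T0 replicate 1 (adjusted p = 0.0628) or without H1650 erlotinib replicate 2 (adjusted p = 0.122). Its fall in PC9 lay within the range of the mitotic class with both drugs. KIFC2 (chr8:144466043-144474202) had 59.99 and 49.3 normalized CPM in PC9 at T0, 118 and 81.01 with erlotinib and 91.98 and 72.04 with osimertinib, and 171 and 157 in H1650 at T0, 285 and 214 with erlotinib and 235 and 207 with osimertinib. It was the transport kinesin called higher in each of the 4 comparisons (0.86, 0.59, 0.61 and 0.43), although its replicates lay far apart. The call in H1650 after osimertinib was lost without H1650 T0 replicate 2 (adjusted p = 0.0649) or without H1650 osimertinib replicate 1 (adjusted p = 0.0938), and with DESeq2 (adjusted p = 0.178). Exons of KIFC3 overlap 2 transcripts, and those of KIFC2 overlap FOXH1, on the opposite strand.

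**Figure D4:**
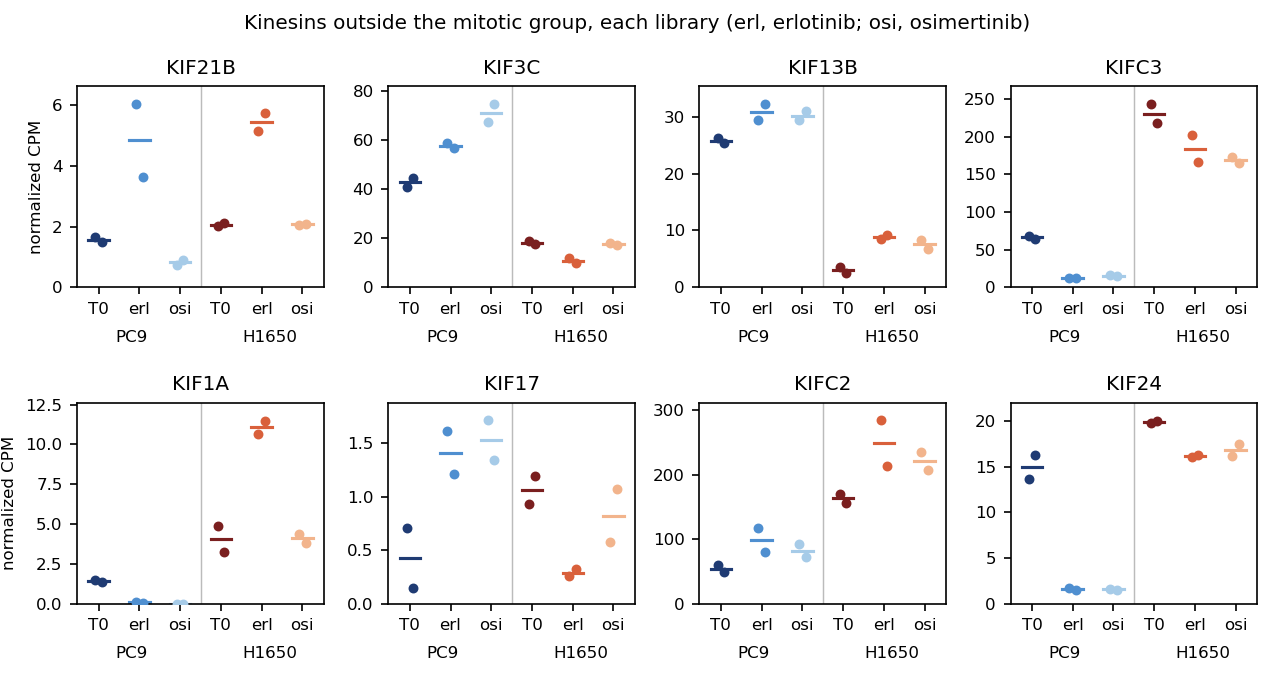
Normalized CPM (linear axis from 0) of 8 kinesins outside the mitotic class, with 1 point per library and a bar at the mean of 2. KIF21B is highest with erlotinib in both lines, KIF13B rises in H1650 from 2.43 and 3.64 to between 6.81 and 9.12, and KIFC3 and KIF24 drop in PC9 and stay high in H1650.

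Cofactors of transport motors, listed from general knowledge with earlier results of these data known, were also mixed. Of 16, 10 were called higher and 4 lower in PC9 after erlotinib, and 8 and 3 after osimertinib, with 6 and 2, and 4 and 4, in H1650. Of all genes, 32.7% were called higher with each drug in PC9 and 18.0% and 17.8% in H1650, and 29.1%, 28.7%, 18.5% and 17.9% were called lower in the 4 comparisons. Among the kinesin light chains, which link KIF5 motors to cargo, KLC4 and KLC2 moved in opposite directions in PC9. KLC4 rose by 2.09 and 2.14 on the log2 scale, the largest rise of the 16, while KLC2 changed by -0.99 and -1.17. Values of KLC1 and KLC3 are not given here. In PC9, MAPK8IP3, a cargo adaptor, rose by 1.60 and 1.81. KIFBP, which binds and blocks several kinesin motor domains, had the largest fall of the 16 there, -1.36 and -1.23. In H1650 the 16 ranged from -0.52 to 0.47 with erlotinib and from -0.53 to 0.58 with osimertinib. Dynein and dynactin, the motor complex of the opposite direction, had 11 of 12 listed genes tested. In PC9, 4 were higher and 3 lower after erlotinib and 5 and 3 after osimertinib, while in H1650 7 and 5 were lower. The shares of all genes are those just given. DYNC1H1, its heavy chain, was higher in PC9 (0.24 and 0.48) and lower in H1650 (-0.67 and -0.56).

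Among the other kinesins, KIF24 fell in PC9 as the mitotic kinesins did. KIF24 (chr9:34252381-34311371), a centriolar depolymerase that holds back cilium growth, had 13.6 and 16.3 normalized CPM in PC9 at T0, 1.75 and 1.56 with erlotinib and 1.66 and 1.51 with osimertinib. Its log2 fold changes of -3.18 (SE 0.173, adjusted p = 2.77e-15) and -3.23 (SE 0.181, adjusted p = 4.99e-15) lay within the mitotic range, although it was not placed in that class. In H1650, KIF24 had 19.8 and 20.1 at T0, 16.05 and 16.3 with erlotinib and 16.1 and 17.5 with osimertinib, and the treated libraries did not overlap T0, but -0.30 and -0.24 missed the threshold (adjusted p = 0.0656 and 0.137). With erlotinib the miss was narrow, and RLE normalization or one fit per line called it lower (adjusted p = 0.0496 and 0.0414). Exons of KIF24 overlap UBAP1 on the opposite strand.

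KIF2A (chr5:62306162-62537249), a depolymerase of neurites and spindle poles, had 71.6 and 79.8 normalized CPM in PC9 at T0, 41.9 and 44.9 with erlotinib and 38.5 and 45.4 with osimertinib, and 60.4 and 63.3 in H1650 at T0, 51.5 and 56.1 with erlotinib and 46.4 and 50.6 with osimertinib. It was lower in PC9 (-0.80 and -0.86) and in H1650 after osimertinib (-0.35), a call lost without H1650 osimertinib replicate 1 (adjusted p = 0.0621), while -0.20 after erlotinib missed the threshold (adjusted p = 0.0868). Its exons overlap IPO11 on the same strand. KIF7 (chr15:89608789-89655451), which organizes the ciliary tip in hedgehog signalling, had 26.4 and 25.8 at T0, 17.6 and 17.4 with erlotinib and 15.1 and 12.7 with osimertinib in PC9 and 35.5 and 33.6 at T0, 43.5 and 41.5 with erlotinib and 35.4 and 32.6 with osimertinib in H1650. It fell in PC9 (-0.58 (SE 0.104, adjusted p = 2.29e-05) and -0.90 (SE 0.109, adjusted p = 3.73e-08)) and was higher in H1650 after erlotinib (0.30 (SE 0.0962, adjusted p = 0.0154)), a call that was lost without H1650 T0 replicate 2 (adjusted p = 0.130) or without H1650 erlotinib replicate 1 (adjusted p = 0.109), and also with DESeq2 (adjusted p = 0.0632) and with no filter (adjusted p = 0.0547). Exons of KIF7 overlap TICRR on the opposite strand. KIF9, found in cilia, was at 11.6 and 12.3 normalized CPM in PC9 at T0 and 7.49 to 7.90 over the treated PC9 libraries. It was at 4.80 to 6.75 over all H1650 libraries, T0 included. It was lower in PC9 (-0.66 and -0.64) and not called in H1650, and its exons overlap KLHL18 and an antisense RNA.

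KIF27 (chr9:83836698-83921465), a relative of KIF7, was the other kinesin called higher in each of the 4 comparisons. PC9 had 8.17 and 6.91 normalized CPM at T0, 14.6 and 16.5 with erlotinib and 14.6 and 14.6 with osimertinib, and H1650 had 3.50 and 4.44 at T0, 8.57 and 8.24 with erlotinib and 7.16 and 6.19 with osimertinib, without overlap with T0. The log2 fold changes were 1.05, 0.95, 1.07 and 0.74, with adjusted p at most 0.00130. Its exons overlap 2 transcripts on the opposite strand. KIF26A (chr14:104138723-104180894), an atypical kinesin without motor activity, had 0.706 and 0.543 normalized CPM in PC9 at T0, 1.84 and 1.48 with erlotinib and 1.11 and 1.96 with osimertinib, and 10.9 and 10.8 in H1650 at T0, 19.4 and 17.8 with erlotinib and 10.2 and 8.46 with osimertinib. It was higher with both drugs in PC9 (1.40 and 1.26) and with erlotinib in H1650 (0.78 (SE 0.163, adjusted p = 0.000358)), while osimertinib in H1650 was not called (adjusted p = 0.353). The call in PC9 after osimertinib was lost without PC9 osimertinib replicate 2 (adjusted p = 0.103). KIF12 (chr9:114086126-114099291), known from kidney and liver, had 0 reads in all 6 PC9 libraries and 2.94 and 2.55 normalized CPM in H1650 at T0, 2.17 and 3.17 with erlotinib and 2.72 and 4.32 with osimertinib, where neither drug passed the test.

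Counted over the 36 tested kinesins, 29 were called in PC9 after each drug (61.8% and 61.4% of all genes), 27 in H1650 after erlotinib (36.5%) and 23 after osimertinib (35.7%). After erlotinib in PC9, 8 were higher and 21 lower, and after osimertinib 6 and 23. In H1650 these numbers were 7 and 20, and 3 and 20. In each of the 4 drug comparisons 16 kinesins were called lower (9.16% of all genes), which were the 12 mitotic kinesins with KIF1B, KIF5B, KIF21A and KIFC3, and 2 were called higher, KIFC2 and KIF27 (8.47% of all genes).

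The difference between the lines was itself tested by subtracting the PC9 change from the H1650 change. It was called for 26 of 36 kinesins with erlotinib (40.8% of all genes) and for 25 with osimertinib (41.9%). All 12 mitotic kinesins were called with both drugs, in the direction of a smaller fall in H1650. Their differences ran from 1.60 to 2.64 with erlotinib (median 2.23) and from 1.42 to 2.59 with osimertinib (median 2.25), with adjusted p at most 1.48e-11. Of the 17 transport kinesins, 5 were called with a positive and 5 with a negative difference with erlotinib, and 4 and 5 with osimertinib. Among all genes tested, 21.1% were called with a positive and 19.8% with a negative difference with erlotinib, and 21.5% and 20.5% with osimertinib. With both drugs in the same direction, 23 kinesins were called (33.4% of all genes), of which 8 were transport kinesins and 3 others. For KIF13B the difference was 1.30 (SE 0.210) with erlotinib and 1.10 (SE 0.213) with osimertinib, where it rose in H1650, and for KIFC3 it was 2.06 (SE 0.136) and 1.62 (SE 0.136), where it fell in PC9. KIF3C (-1.18 (SE 0.148) and -0.79 (SE 0.143)) and KIF13A (-0.60 (SE 0.120) and -0.77 (SE 0.120)) had the opposite sign.

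The 2 lines share no library, so their changes can be set against each other over the 36 kinesins as a description. Pearson's r was 0.374 with erlotinib and 0.439 with osimertinib, and Spearman's rho was 0.492 and 0.589. Each point is 1 gene, genes of a line share its T0 libraries, the mitotic kinesins form 1 cluster among the points, and the fitted values of KIF1A and KIF12 rest on PC9 groups with 0 reads.

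**Figure D5:**
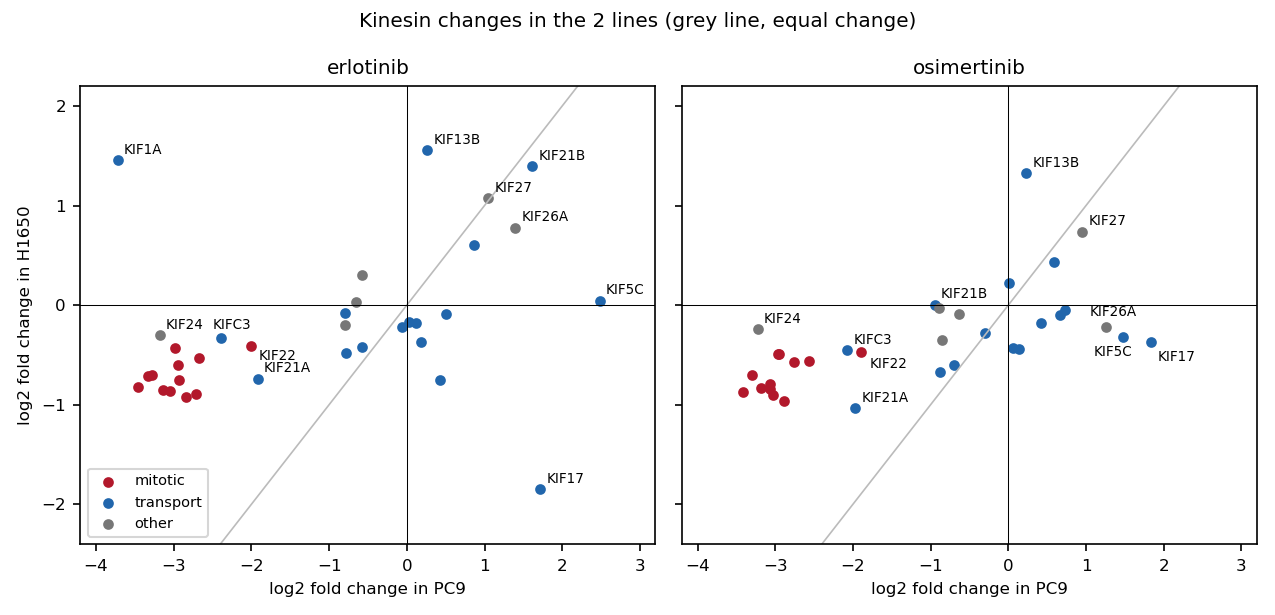
Log2 fold change in H1650 (vertical axis) against that in PC9 (horizontal axis) with erlotinib and osimertinib, 1 point per kinesin, coloured by class. The mitotic kinesins cluster between -3.46 and -1.89 on the PC9 axis and between -0.96 and -0.41 on the H1650 axis, away from the line of equal change; KIF12 (both panels) and KIF1A (osimertinib) are not drawn because a PC9 group had 0 reads.

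The drugs, at doses that differ, were also compared with each other. In PC9, 4 of 36 kinesins were called between osimertinib and erlotinib (16.6% of all genes), of which 1 was higher (10.1%) and 3 lower (6.41%) with osimertinib. In H1650, 6 were called (8.75%), 2 higher (5.02%) and 4 lower (3.73%). In PC9, 0 of the 12 mitotic kinesins were called by edgeR and 0 by DESeq2, and 1 had an unadjusted p under 0.05 with edgeR, with differences between -0.32 and 0.25. In H1650, 1 was called, KIF20A, which was higher with osimertinib (0.34 (SE 0.0756, adjusted p = 0.00382)). That call was lost without H1650 erlotinib replicate 1 (adjusted p = 0.0728) or without H1650 osimertinib replicate 2 (adjusted p = 0.0940). KIF21B was lower with osimertinib in both lines, with differences of -2.56 (SE 0.318, adjusted p = 8.92e-07) in PC9 and -1.39 (SE 0.269, adjusted p = 0.000836) in H1650, and KIF3C was higher in both, with 0.30 (SE 0.0916, adjusted p = 0.0219) and 0.70 (SE 0.116, adjusted p = 0.000144). In H1650, KIF1A (-1.43 (SE 0.222, adjusted p = 6.66e-05)) and KIF26A (-0.99 (SE 0.166, adjusted p = 0.000148)) were lower with osimertinib. The remaining calls were small: -0.23 for KIF1C in PC9 and -0.32 and -0.32 for KIF7 in PC9 and H1650. The PC9 calls of KIF3C and KIF1C were each lost in 3 of 12 fits that left out 1 library, with adjusted p up to 0.240 and 0.116. Those of KIF7 were lost in 11 fits in PC9 and 4 in H1650, with adjusted p up to 0.384 and 0.257. The KIF3C call was also lost with no filter (adjusted p = 0.0514), that of KIF7 in PC9 with DESeq2 (adjusted p = 0.0934), with RLE scaling (adjusted p = 0.0573), with no filter (adjusted p = 0.0609) and with one fit per line (adjusted p = 0.0502), and that of KIF7 in H1650 with DESeq2 (adjusted p = 0.0717) and with no filter (adjusted p = 0.0761). Without PC9 erlotinib replicate 1, 2 kinesins were called in PC9.

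At T0, 29 of the 36 kinesins differed between the lines (69.6% of all genes), 19 higher (35.8%) and 10 lower (33.8%) in H1650. The mitotic kinesins differed little: 7 of 12 were called, with KIF11 (0.63), KIF20B (0.54), KIF18B (0.28) and KIF23 (0.19) higher and KIF22 (-0.69), KIF2C (-0.60) and KIF4A (-0.40) lower in H1650. The KIF18B call was lost without H1650 T0 replicate 2 (adjusted p = 0.109) or without PC9 T0 replicate 2 (adjusted p = 0.136), and also with DESeq2 (adjusted p = 0.0508). The KIF23 call was lost without H1650 T0 replicate 1 (adjusted p = 0.0635), without H1650 T0 replicate 2 (adjusted p = 0.159), without H1650 osimertinib replicate 1 (adjusted p = 0.0537), without H1650 osimertinib replicate 2 (adjusted p = 0.0539) or without PC9 T0 replicate 1 (adjusted p = 0.240), and also with DESeq2 (adjusted p = 0.0752), with RLE scaling (adjusted p = 0.0532) and with no filter (adjusted p = 0.176). Larger differences lay among the transport kinesins and the others. KIF13B was 8.60-fold lower in H1650 (-3.10 (SE 0.155, adjusted p = 2.88e-16)). KIFC3 (1.80), KIFC2 (1.58) and KIF26A (4.11 (SE 0.261, adjusted p = 6.02e-14)) were higher in H1650. For genes near the detection limit in PC9, the ratio of H1650 to PC9 was 39.6 for KIF5C (95% counting interval 16.7 to 123) and 23.6 for KIF5A (10.6 to 65.1), and KIF12 was at least 18.3-fold higher.

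Levels can be compared between genes only per length, and the order depends on which length is used. With the length in the table, KIF5B led at T0 in both lines with 53.8 ± 2.00 (SD, n = 2) normalized CPM per kb in PC9 and 79.3 ± 1.47 in H1650, followed by KIF1C with 52.97 ± 1.72 and 49.7 ± 2.21. In PC9 the libraries of these first 2 overlapped. KIF2C, KIF20A and KIF22, all mitotic, came next in PC9 at 43.8 ± 1.09, 43.04 ± 0.841 and 42.6 ± 0.292, with overlapping neighbours, and KIFC1 followed at 37.2 ± 2.09. In H1650, KIF20A followed at 45.98 ± 1.43, then KIFC2 at 36.8 ± 2.19 and KIF11 at 36.7 ± 0.0941, which overlapped each other, and KIF3B at 34.04 ± 1.25. After erlotinib the order in PC9 was led by KIF1C at 50.8 ± 0.223 and KIF5B at 31.4 ± 2.34, and the highest mitotic kinesin, KIF22, stood at 10.6 ± 0.519. With that length, KIF20A in H1650 after erlotinib was at 24.7 ± 1.10. With the longest GENCODE transcript instead, 55 of 72 group levels tried moved by more than the spread between replicates and the order changed. KIF22 then led in PC9 at T0 with 73.3 ± 0.503, ahead of KIF1C with 57.4 ± 1.86, KIF2C with 54.1 ± 1.34 and KIF5B with 53.7 ± 2.00. In H1650, KIF5B still came first with 79.2 ± 1.47, followed by KIFC3 with 67.3 ± 5.10 and KIF23 with 57.6 ± 1.91. After erlotinib in PC9, KIF1C (55.03 ± 0.241) and KIF5B (31.3 ± 2.33) led with either length.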

How the data were processed

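RNA-seq of 12 libraries was read from 1 table of whole-number counts per gene, which the authors deposited without normalization together with a gene length in bases. The authors used the DolphinNext pipeline with featureCounts, and the labels name GRCh38 and DESeq2. The aligner, the annotation and the strand setting are not given in the sources used here, so reads of overlapping genes on opposite strands may not be told apart.

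Groups were taken from the labels. Genes were kept with edgeR's filterByExpr by group (19108 kept, 41483 left out). Counts were scaled by TMM (factors 0.941 to 1.08) and fitted with 6 group means by edgeR 4.0.16 in R 4.3.3 (limma 3.58.1), using the quasi-likelihood test (glmQLFit and glmQLFTest) with 6 residual degrees of freedom and Benjamini-Hochberg adjustment over all genes kept. The SE of a log2 fold change is its size divided by the square root of the test's F statistic, and its interval was built on that SE. Within each line, both drugs were set against T0 and against each other. Between lines, the drug responses and the T0 levels were compared. The steps were tested on simulated data. Totals per library were 17961765 to 26346187 reads (median 21581420), of which 4.36% to 7.20% fell on mitochondrial genes. Replicates differed by more than counting noise in each group.

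The members, the classes and the lists of partner genes were chosen with earlier results of these data known. Every member is named. Values per library are given for the tested mitotic kinesins and for other kinesins that were called with 1 direction throughout the 4 drug contrasts, in both drug-by-line differences, between the drugs in either line, or between lines at T0 with a log2 difference beyond 2. The remaining tested members are given by range, some with values per library. Where a group had 0 reads, folds are bounds against 3 reads per library. Where it had few, ratios of summed reads carry exact binomial 95% counting intervals.

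Alternatives were DESeq2 1.42.0, RLE and upper quartile scaling, no filter beyond 1 count, a minimum of 10 counts per library, a threshold of 0.01, one fit per line, the replicate number as a block, leaving out each library, other class memberships and another transcript length. Positions came from GENCODE 29 on GRCh38, where all 42 symbols matched, and promoter windows from RefSeq on GRCh38.p14, where 34 of 42 matched.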

Additional observations from a re-analysis of the deposited data

Results flagged for a closer look

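The results in this group are kinesins whose response to a drug differed between the lines by a test of the difference itself, the log2 change in H1650 minus that in PC9 (edgeR's quasi-likelihood test, adjusted p under 0.05). A positive value means a smaller fall or a larger rise in H1650. The values for the 2 drugs in a line rest on the same T0 libraries.

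With erlotinib, the differences of the mitotic kinesins were 1.60 for KIF22, 1.82 for KIF20A, 1.92 for KIF14, 2.14 for KIF2C, 2.18 for KIF4A, 2.18 for KIF18A, 2.28 for KIF23, 2.34 for KIFC1, 2.55 for KIF15, 2.58 for KIF11, 2.62 for KIF20B and 2.64 for KIF18B. Those of the transport kinesins called with erlotinib were -3.56 for KIF17, -2.44 for KIF5C, -1.18 for KIF3C, -0.60 for KIF13A, -0.55 for KIF3B, 0.30 for KIF5B, 1.18 for KIF21A, 1.30 for KIF13B, 2.06 for KIFC3 and 5.18 for KIF1A, and those of the others were 0.60 for KIF2A, 0.69 for KIF9, 0.88 for KIF7 and 2.88 for KIF24.

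With osimertinib, the differences of the mitotic kinesins were 1.42 for KIF22, 1.92 for KIF23, 2.01 for KIF20A, 2.13 for KIF14, 2.18 for KIF2C, 2.22 for KIF4A, 2.27 for KIF11, 2.35 for KIF20B, 2.46 for KIF18A, 2.47 for KIFC1, 2.53 for KIF18B and 2.59 for KIF15. Those of the transport kinesins called with osimertinib were -2.21 for KIF17, -0.79 for KIF3C, -0.77 for KIF13A, -0.58 for KIF3B, -0.48 for KIF3A, 0.93 for KIF21A, 1.10 for KIF13B, 1.62 for KIFC3 and at least 3.25 for KIF1A, and those of the others were -1.48 for KIF26A, 0.51 for KIF2A, 0.87 for KIF7 and 2.98 for KIF24.

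The KIF1A value with osimertinib is a bound against 3 reads per library, since both PC9 libraries had 0 reads. The fitted erlotinib values of KIF1A and KIF5C depend on the prior count, since PC9 groups had 2 or 3 reads in some libraries. The KIF17 difference with erlotinib was -5.04 without PC9 T0 replicate 1 and -2.83 without PC9 T0 replicate 2, and that with osimertinib -3.69 and -1.49. The KIF5C difference was -1.43 without PC9 erlotinib replicate 2. Some of these calls were lost when 1 library was left out. With erlotinib, that of KIF5B was lost without H1650 T0 replicate 2 (adjusted p = 0.0710), without H1650 erlotinib replicate 2 (adjusted p = 0.140), without PC9 T0 replicate 2 (adjusted p = 0.104) or without PC9 erlotinib replicate 1 (adjusted p = 0.136). That of KIF9 was lost without H1650 T0 replicate 1 (adjusted p = 0.135), without H1650 erlotinib replicate 2 (adjusted p = 0.0870) or without PC9 T0 replicate 2 (adjusted p = 0.0692), and that of KIF5C without PC9 T0 replicate 1 (adjusted p = 0.0608) or without PC9 erlotinib replicate 2 (adjusted p = 0.234). With osimertinib, the call of KIF17 was lost without H1650 T0 replicate 2 (adjusted p = 0.0533), without H1650 osimertinib replicate 1 (adjusted p = 0.0651), without PC9 T0 replicate 2 (adjusted p = 0.116) or without PC9 osimertinib replicate 1 (adjusted p = 0.0582). That of KIF3A was lost without H1650 osimertinib replicate 1 (adjusted p = 0.0768) or without PC9 T0 replicate 1 (adjusted p = 0.0853), and that of KIF26A without PC9 osimertinib replicate 2 (adjusted p = 0.0724). Other settings also ended calls, which were those of KIF5B with erlotinib with upper quartile scaling (adjusted p = 0.0728), KIF9 with erlotinib with DESeq2 (adjusted p = 0.0754), KIF17 with osimertinib with DESeq2 (adjusted p = 0.0548) and KIF3A with osimertinib with no filter (adjusted p = 0.0577).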

How the results depend on the processing

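Of 203 results for single kinesins, 169 kept their direction and side of the threshold under every alternative run. Of 29 counts and medians, 25 were kept under looser rules. A count was kept if it changed by no more than 1.5 times. A median was kept if its sign held and it moved by less than the spread between replicates. The 72 results of mitotic kinesins for the drugs against T0 and for the drug-by-line differences kept their direction and side of the threshold in all 1416 alternative values. The median change of the transport kinesins in PC9 after osimertinib turned from 0.056 to -0.029 without the filter and -0.059 with one fit per line, and ran from -0.00099 to 0.080 when 1 library was left out, the lowest without PC9 T0 replicate 2. The number of kinesins called between the drugs in PC9 was 4, against 1 at an adjusted p under 0.01, 7 with the replicate block, and 2 to 4 when 1 library was left out. Transport kinesins higher in H1650 after osimertinib were 2, against 1 at an adjusted p under 0.01, 1 with DESeq2, and 1 to 3 when 1 library was left out. Those lower in H1650 after erlotinib were 8, and 5 to 8 when 1 library was left out. The cause was not tested. Over all genes tested, same-numbered replicates did not deviate together (correlations of -0.067 to 0.0947 between groups). Whether smaller sets of genes share a replicate effect was not tested. With the replicate block, calls over all genes between the drugs rose from 3163 to 4166 in PC9 and from 1672 to 2670 in H1650. Those after erlotinib in H1650 rose from 6966 to 7821. The block changed no other kinesin count by over 1.5 times. With it, KIF2A (adjusted p = 0.0103) and KIF24 (0.0464) were also called lower in H1650 after erlotinib, and KIF13B (0.0379) higher in PC9 after erlotinib. No scaling moved the median of all genes by more than 0.0905 on the log2 scale. With 2 libraries a group, low genes such as KIF17, KIF5A, KIF5C and KIF1A are limited by depth.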
